A study of Arabidopsis thaliana with 12 samples.

Results

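The genes described here are 3 members of the GH9 family of glycosyl hydrolases, GH9B16 (AT4G38990), GH9B12 (AT2G44570) and GH9B8 (AT2G32990), and AT3G57630, an exostosin-type glycosyltransferase. They are the array rows whose platform annotation names exactly 1 gene, that gene being one of these, and they make 4 of the 689 genes named alone on a row. The genes were selected on their differences in intensity between mutant and wild type in earlier results of the same arrays. Those differences are therefore given as a description, with no p-value.

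Total RNA of Arabidopsis thaliana was measured on 12 arrays, 6 titled WT (ecotype columbia 0) and 6 titled stn7stn8, a double mutant in STN7 and STN8. STN7 phosphorylates mainly antenna proteins of the thylakoid membrane, and STN8 mainly core proteins of photosystem II. The groups rest on the sample titles alone, because the source field names the wild type for all 12 samples. The labels state no organ, age, growth condition or allele. They do not say whether replicates came from separate plants, so any spread and p-value given here may be technical. Mutant replicates 4 and 5 held the same values and were counted as 1 array, which leaves 6 wild-type and 5 mutant arrays. No row named STN7 or STN8 alone, so genotype could not be checked. Of the markers listed, 0 of 10 for green tissue and 0 of 10 for roots, pollen and seeds were named alone. Tissue could therefore not be checked with these markers, and other genes were not looked at for it. In bulk RNA, fewer cells of a type and less RNA per cell cannot be told apart. The table holds deposited intensities on a linear scale for 3439 rows, which were quantile-normalized on the log2 scale unless stated. Of the 3229 rows tested with limma, 23.7% were called higher and 19.6% lower in the mutant, with an adjusted p below 0.05 as the threshold. Consecutive wild-type arrays were alike beyond single genes: over 3145 rows, deviations from the group mean correlated with r = 0.403 for replicates 1 and 2, 0.350 for 3 and 4 and 0.591 for 5 and 6. The 6 arrays may therefore hold fewer than 6 independent samples, and with these pairs as a random block 518 rows were called higher and 488 lower, against 766 and 632 without it. Correlations between wild-type arrays that are not consecutive are not given, so the likeness cannot be called particular to consecutive arrays. Before scaling, the median log2 intensity of an array lay between -1.65 and -1.36 in wild type and between -1.0 and -0.944 in the mutant.

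Plant GH9 enzymes are cellulases that cut the beta-glucan chains of the cell wall. Class A enzymes such as KORRIGAN are anchored in the membrane and are needed for cellulose synthesis, class B enzymes have a signal peptide and a catalytic domain alone, and class C enzymes carry an added carbohydrate-binding module. All 3 GH9 genes here are of class B. AT3G57630 encodes ExAD, a Golgi enzyme that adds an arabinose to the short arabinan chains on the hydroxyproline residues of extensins, the rod-like glycoproteins of the wall.

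The 3 GH9 genes did not share a direction. GH9B16 was at 0.505 of the wild-type level in the mutant, while GH9B12 was at 1.34 and GH9B8 at 1.32 times that level. ExAD was at 0.422 of the wild-type level, the largest difference of the 4 after normalization. As deposited, GH9B12 and GH9B8 differed by slightly more than ExAD, at 1.021 and 1.001 against -0.982 (log2). All 4 passed limma's threshold, as did 43.3% of all rows tested, and nothing is read from this count because the comparison was used to choose the genes.

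GH9B16 ranged in wild type from -1.77 to -1.28 with a median of -1.51 (normalized log2 intensity, n = 6). In the mutant its levels were -2.55, -2.86, -2.17, -2.60 and -2.35 in replicates 1, 2, 3, 4 and 6. Every mutant array lay below every wild-type array. The group means were -1.52 ± 0.228 (SD) and -2.51 ± 0.264, a difference of -0.99 ± 0.144 (SE). Within wild type the levels fell into higher values in replicates 1, 3 and 4 and lower values in replicates 2, 5 and 6. With each array centred on its median the groups did not overlap, but on the deposited scale they did. There, GH9B16 ranged from 0.226 to 0.383 (median 0.284) in wild type and from 0.154 to 0.288 (median 0.214) in the mutant. Its difference was then -0.40 ± 0.198, which limma did not call.

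GH9B12 ranged in wild type from -2.84 to -2.22 with a median of -2.60 (n = 6). Its mutant levels were -2.30, -2.01, -2.51, -1.73 and -2.24 in replicates 1, 2, 3, 4 and 6. The groups overlapped after normalization: 2 of the 5 mutant arrays lay above the highest wild-type array, while all 5 lay above the wild-type mean. The means were -2.58 ± 0.212 and -2.16 ± 0.298 (SD), a difference of 0.42 ± 0.148 (SE). Wild-type replicate 2 was the highest of its group, and mutant replicate 4 was the highest of all arrays. As deposited, the intensities did not overlap, at 0.122 to 0.174 in wild type and 0.223 to 0.384 in the mutant, and the difference was 1.02 ± 0.147. The median difference of all rows on that scale was 0.504, and the share of all rows without overlap there is not given.

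GH9B8 ranged in wild type from -2.98 to -2.30 with a median of -2.60 (n = 6). Its mutant levels were -2.49, -2.14, -2.33, -2.0 and -2.22 in replicates 1, 2, 3, 4 and 6. Here too all 5 mutant arrays lay above the wild-type mean, and 3 lay above the highest wild-type array. The means were -2.63 ± 0.290 and -2.24 ± 0.186 (SD), a difference of 0.40 ± 0.146 (SE). As deposited, the intensities were 0.0946 to 0.193 in wild type and 0.218 to 0.322 in the mutant, again with no overlap and with a difference of 1.001 ± 0.196. As for GH9B12, this stands beside a median difference of all rows of 0.504, with no share of all rows without overlap given.

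GH9B12 and GH9B8 kept their calls in 10 and 9 of 25 alternative analyses, against 25 of 26 for GH9B16 and 26 of 26 for ExAD. All alternatives reuse the arrays on which the genes were selected, and 11 of them only leave out 1 array. The counts are therefore a description of how the calls depend on the processing and support no difference. The share of all rows that kept a call is not given. The direction of all 4 was kept in every alternative that gave a value. GH9B12 lost its call without wild-type replicate 1, 3, 4 or 5 and without mutant replicate 2, 4 or 6, with differences from 0.315 to 0.443. GH9B8 lost it without wild-type replicate 1, 5 or 6 and without mutant replicate 2, 3, 4 or 6, with differences from 0.328 to 0.42. Among other settings, both also lost it when consecutive wild-type arrays were averaged or set as a random block, and after cyclic loess.

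ExAD (AT3G57630) ranged in wild type from 0.34 to 1.03 with a median of 0.67 (n = 6). Its mutant levels lay close together, at -0.46, -0.65, -0.42, -0.57 and -0.57 in replicates 1, 2, 3, 4 and 6. The groups did not overlap, and a wide gap separated the lowest wild-type array from the highest mutant array. The means were 0.71 ± 0.265 and -0.53 ± 0.092 (SD), a difference of -1.25 ± 0.126 (SE). As deposited, the intensities were 1.2 to 1.96 in wild type and 0.742 to 0.845 in the mutant, with a difference of -0.98 ± 0.126. For ExAD the means of consecutive wild-type pairs were 0.447 in replicates 1 and 2, 0.675 in 3 and 4 and 1.01 in 5 and 6. Without replicates 5 and 6 the difference was -1.06.

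**Figure D1:**
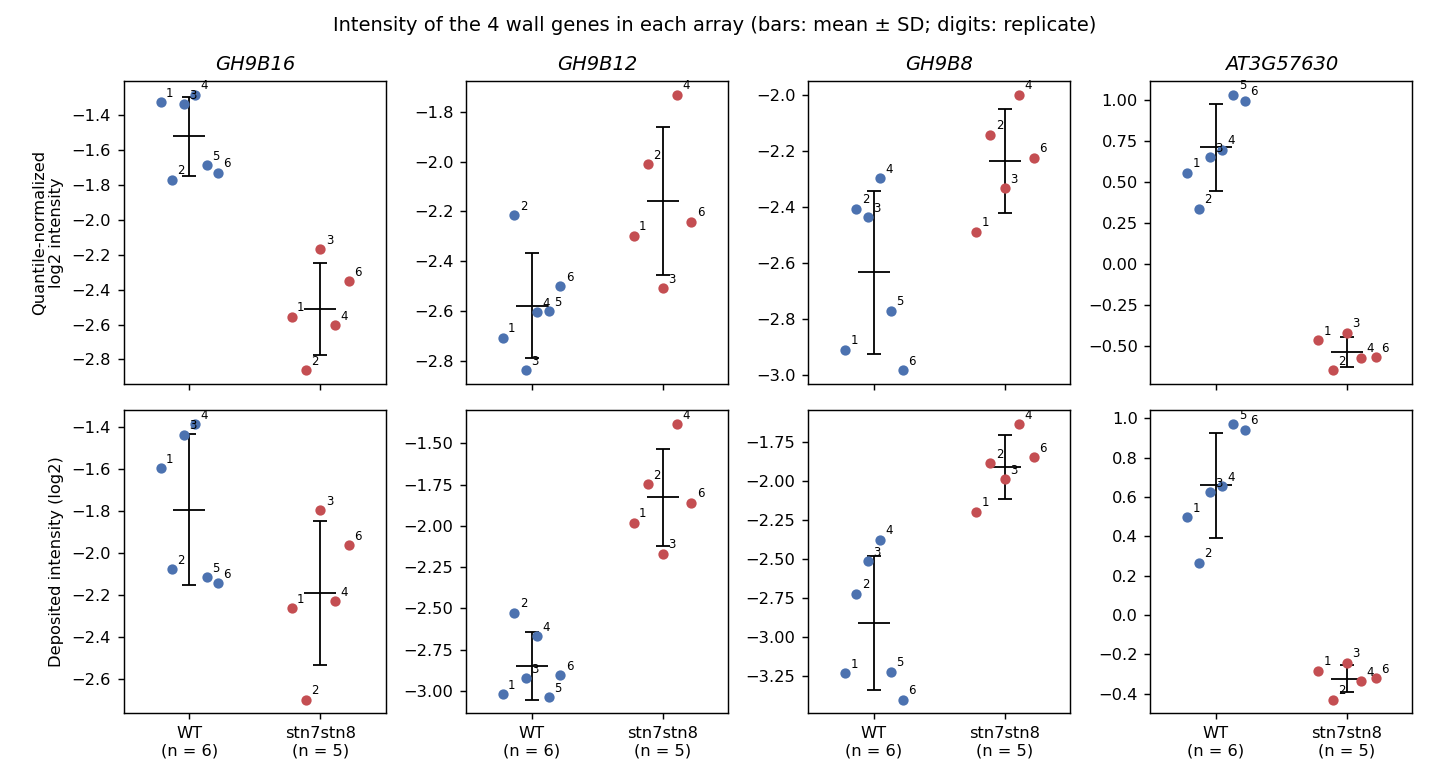
Normalized (top) and deposited (bottom) log2 intensity of GH9B16, GH9B12, GH9B8 and AT3G57630, with 1 point per array, the replicate number beside it and bars for the mean ± SD of 6 wild-type and 5 mutant arrays. After normalization the groups separate for GH9B16 and AT3G57630 and overlap for GH9B12 and GH9B8, while on the deposited scale GH9B16 overlaps and the other 3 genes separate. The median of all rows differs by 0.504 as deposited, and the share of all rows that separate on that scale is not given.

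Of the 4 genes, 2 had groups that did not overlap after normalization, both lower in the mutant, where 28.9% of all rows tested did not overlap and 13.2% had every mutant array below every wild-type array. Because GH9 rows were measured on the same arrays, the change of the gap between 2 of them within an array does not depend on a factor applied to the whole array. The gap between GH9B12 and GH9B16 on the deposited log2 scale had a mean of -1.06 ± 0.412 over the 6 wild-type arrays and of 0.361 ± 0.545 over the 5 mutant arrays (SD), a shift of 1.42. The gap ranged from -1.49 to -0.45 in wild type and from -0.37 to 0.95 in the mutant, with no overlap. The gap between GH9B8 and GH9B16 shifted by 1.40, again with no overlap. The gap between GH9B12 and GH9B8 shifted by 0.020 as deposited, with SDs of 0.344 and 0.178. The levels of different rows cannot be compared, so a gap has no meaning as a level. The shifts restate the differences on which the genes were selected, so they and the lack of overlap are a description and support nothing.

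**Figure D2:**
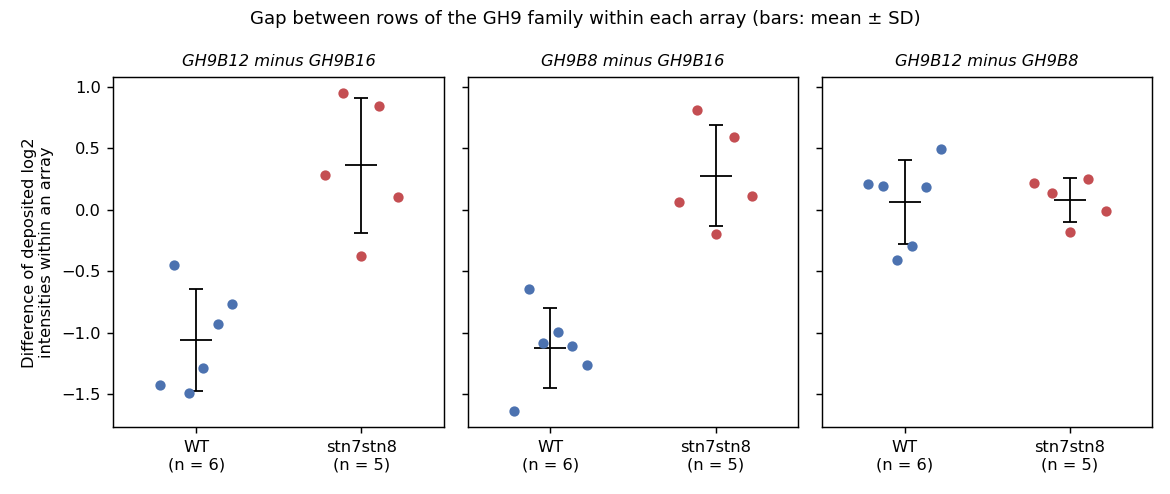
Difference between the deposited log2 intensities of pairs of GH9 rows within each array, with bars for the mean ± SD. The gaps of GH9B12 and of GH9B8 to GH9B16 are higher in all 5 mutant arrays than in all 6 wild-type arrays, and the gap between GH9B12 and GH9B8 overlaps.

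Over the 11 arrays GH9B12 and GH9B8 correlated with r = 0.656, and GH9B16 and ExAD with r = 0.876. These values hold the difference between the groups. On deviations from the group means, r was 0.382 for GH9B12 and GH9B8, and 0.0241 for GH9B16 and ExAD. For GH9B16 and GH9B12 the deviations gave r = -0.719 after normalization and -0.236 as deposited. All these points share the array and its scaling, and they are given as a description.

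The 25 GH9 genes of Arabidopsis lie partly in clusters. In the gene order of the TAIR10.1 table, GH9B16 is followed directly by GH9B17 and GH9B18 on chromosome 4, and GH9B12 is preceded directly by GH9B11, GH9B10 and GH9B9 on chromosome 2. GH9B8, also on chromosome 2, has no GH9 gene among its 3 nearest protein-coding neighbours on either side. A single name in the annotation does not exclude hybridisation of such near copies. The array names 4 GH9 genes alone, the 3 above and GH9B11. A further 7 rows list several genes, GH9 genes among them, and no gene is named from these rows.

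GH9B11, the direct neighbour of GH9B12, is also of class B, and its value had the opposite sign after normalization. It ranged from -1.55 to -1.20 in wild type (median -1.45, n = 6) and was at -1.60, -1.88, -2.02, -1.51 and -1.42 in mutant replicates 1, 2, 3, 4 and 6. The groups overlapped, with 3 of 5 mutant arrays below the lowest wild-type array, and the difference of -0.30 ± 0.121 (SE) did not pass (adjusted p = 0.067, limma). As deposited it turned to 0.27, which is below the median shift of all rows there. It passed after cyclic loess at -0.34 and without mutant replicate 6 at -0.37.

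The rows that list several GH9 genes were looked at after their values had been seen and are given without a test. A row that lists GH9B16 with its neighbours GH9B17 and GH9B18 had a difference of -1.20 ± 0.149 (SE), from a mean of -1.12 in wild type to -2.32 in the mutant, with no overlap. Its correlation with the row of GH9B16 was 0.832 over the 11 arrays and -0.122 on deviations from the group means. A row that lists GH9B12 with GH9B11, GH9B10 and GH9B9 was higher by 0.49 ± 0.138 in the mutant, with 3 of 5 arrays above the highest wild-type array. A row listing GH9B10 and GH9B9 differed by 0.46 ± 0.166 and overlapped. The row of GH9B16 and the fitted row that lists it with its neighbours were lower in the mutant under all 4 scalings, at -0.64 as deposited for the row listing 3 genes. A further row that lists GH9B18, GH9B17 and AT3G42155 had too few values to be fitted and went the other way. It was at 0 in 5 of 6 wild-type arrays and at 0.00218 in the other, and it was above 0 in 3 of 5 mutant arrays, at up to 0.104 (deposited intensity). The 3 fitted rows of the chromosome 2 cluster other than that of GH9B11 were higher under all 4 scalings, and that of GH9B11 was higher only as deposited. Of the rest, a row listing the class C genes GH9C2 and GH9C3 differed by -0.67 ± 0.201, and a pair of rows that both list GH9B15 and GH9B14 differed by -0.27 ± 0.425 and -0.30 ± 0.278. As deposited these 3 rows were at -0.078, 0.34 and 0.24.

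**Figure D3:**
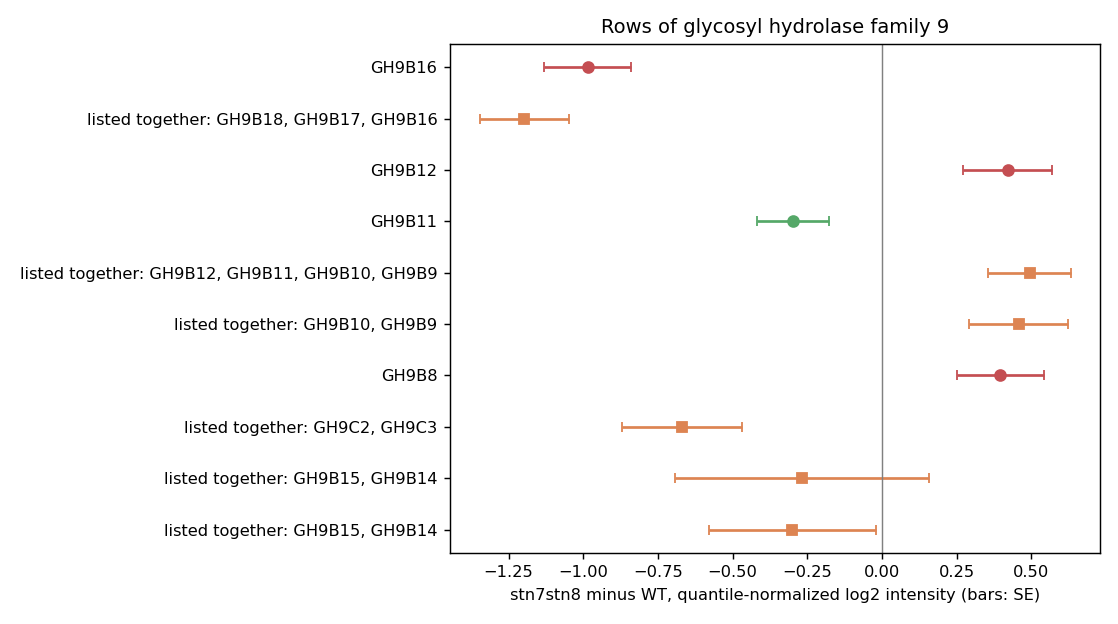
Difference between mutant and wild type (log2, with SE bars) for the GH9 rows with enough values. Circles are rows naming 1 gene (red for GH9B16, GH9B12 and GH9B8, green for GH9B11) and squares are rows listing several. The GH9B16 row and the row listing it lie near -1, and 4 rows lie between 0.396 and 0.494.

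The lists of cell wall genes hold 204 genes: the GH9 family, cellulose synthases, cellulose synthase-like proteins, exostosin-type and other wall glycosyltransferases, extensins with their arabinosyltransferases, xyloglucan endotransglucosylases, expansins, and genes of pectin and nucleotide sugars. Only 7 of them were named alone on a row, the 4 genes above and 3 others, so the wall as a whole was barely measured. The 3 others were GH9B11 and the exostosin-type genes AT4G38040 and AT1G34270. With limma, 0 of these 3 were called higher and 0 lower, while 2 had an unadjusted p under 0.05. The share of all rows with such an unadjusted p is not given, but 43.3% of them passed the stricter adjusted threshold. Nothing is therefore read from the 2. Their median difference was -0.222, beside 0.058 over all rows tested. None of the other extensin arabinosyltransferases, extensins, cellulose synthases, xyloglucan endotransglucosylases or expansins of the lists was named alone.

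AT1G34270, of the same glycosyltransferase family as ExAD, lay between -2.24 and -1.24 in wild type (median -1.87, n = 6) and between -1.66 and -1.06 in the 5 mutant arrays. The difference was 0.40 ± 0.174 (SE; adjusted p = 0.0868, limma). In each of the 5 mutant arrays the level exceeded the wild-type mean. Wild-type replicate 6 was the highest of its group, and without it the difference was 0.51 and passed. It also passed as deposited, at 0.98, where the groups did not overlap. The share of all rows without overlap on that scale is not given. AT4G38040 had a difference of -0.22 ± 0.120 (adjusted p = 0.157, limma), with overlapping groups. Centring each array on its median gave -0.33, which passed, and the deposited values gave 0.21. CSLA01, a cellulose synthase-like protein of the class that makes mannan backbones, was found by its name and not through the lists. It had a difference of -0.25 ± 0.125 (adjusted p = 0.121, limma). Centring each array on its median gave -0.39, which passed, and the deposited values gave 0.15. Of the exostosin-type genes, the value of ExAD was thus the lowest, but ExAD was selected on its difference and the other 2 were not. These 2 differed in sign from each other, with AT4G38040 at -0.22 and AT1G34270 at 0.40, and did not pass after quantile normalization.

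How the arrays were scaled bore on every size. As deposited, the median of all rows differed by 0.504 between mutant and wild type, against 0.0575 after quantile normalization. Relative to that median, GH9B16 was at -0.90 as deposited and -1.04 after normalization, GH9B12 at 0.52 and 0.36, GH9B8 at 0.50 and 0.34, and ExAD at -1.49 and -1.30. GH9B11, AT4G38040 and CSLA01, which turned in sign as deposited, were at -0.24, -0.30 and -0.36 relative to that median. With each array centred on its median, the differences were -0.94 for GH9B16, 0.48 for GH9B12, 0.46 for GH9B8 and -1.52 for ExAD. After cyclic loess they were -1.05, 0.36, 0.34 and -1.20 in the same order.

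**Figure D4:**
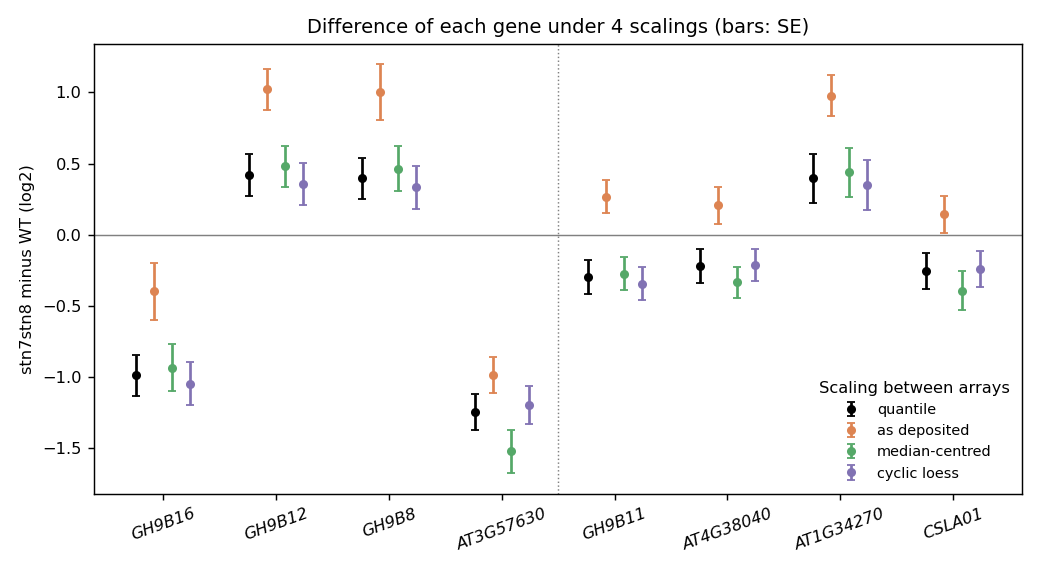
Difference between mutant and wild type (log2, with SE bars) under 4 scalings for GH9B16, GH9B12, GH9B8 and AT3G57630 (left of the dotted line) and for the other wall genes named alone (right). The direction of the 4 genes on the left is the same under all 4 scalings, and GH9B11, AT4G38040 and CSLA01 turn above 0 as deposited.

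The genes also differed in brightness. ExAD lay at the 84.4 percentile of all rows tested by mean level, GH9B16 at 27.5, GH9B12 at 17.2 and GH9B8 at 15.9. GH9B12 and GH9B8 thus lay below the 25 percentile, among 808 dim rows, where 15.7% were called higher and 13.1% lower and the median difference was 0.0724. As deposited the median difference of these dim rows was 0.67, and that of the 807 brightest rows was 0.124. GH9B16 lay close above the 25 percentile. The part of low brightness in the values of GH9B16, GH9B12 and GH9B8 was not tested. When the median intensity was added before the log2 step, which shrinks differences of dim rows, GH9B12 was at 0.14, GH9B8 at 0.12, GH9B16 at -0.39 and ExAD at -0.91. The spread within groups was ordinary for all 4, with pooled SDs from 0.207 to 0.253, at the 42.5 to 57.4 percentiles of all rows. Among all rows tested, the differences stood at percentile 1.98 for ExAD, 4.18 for GH9B16, 77.3 for GH9B8 and 79.1 for GH9B12. No array listed any of the 4 genes at 0.

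**Figure D5:**
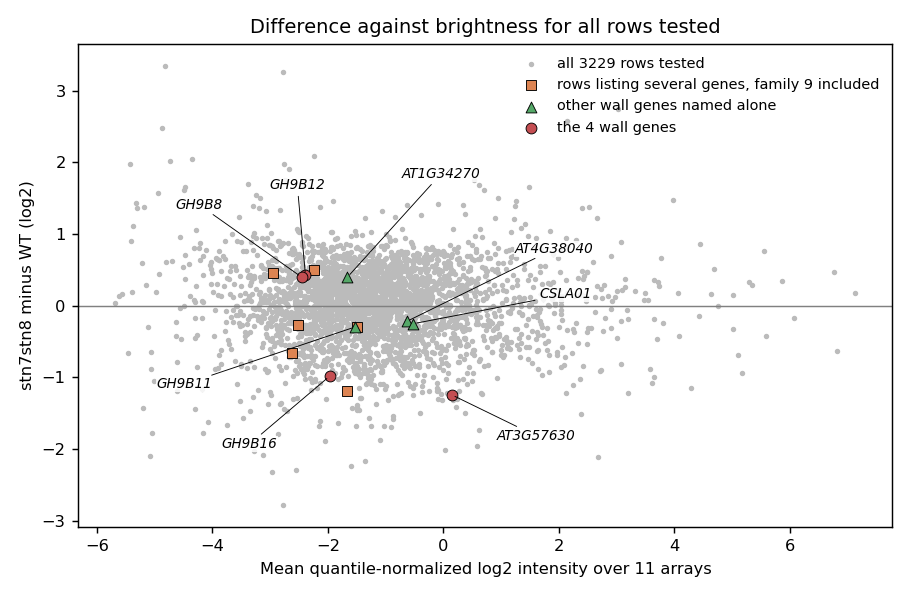
Difference between mutant and wild type against mean normalized log2 intensity for the 3229 rows tested (grey), with the 4 genes as circles, other wall genes named alone as triangles and rows listing several genes, some of the GH9 family, as squares. GH9B12 and GH9B8 lie together among the dim rows above 0, and GH9B16 and AT3G57630 lie near the lower edge of the cloud.

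The named genes with the most similar pattern over the 11 arrays were found by Pearson's r among 626 other rows naming 1 gene, as a description. For ExAD they were AT4G00170 (r = 0.980), AT3G26580 (0.976) and AT2G05120, a nucleoporin (0.960). On the deposited scale the first of these gave 0.974 and the second 0.965, but AT2G05120 gave 0.0417. For GH9B16 they were AT2G36480 (0.955), AT4G32060, a regulator of mitochondrial calcium uptake (0.952), and AT5G11550 (0.950), which gave 0.868, 0.586 and 0.673 as deposited. For GH9B8 they were UGT74D1, a glucosyltransferase that acts on auxin (0.902), AT1G68430 (0.898) and AT4G38670 (0.853). As deposited these gave 0.944, 0.973 and 0.965. For GH9B12 they were AT5G19940 (0.820), AT3G19810 (0.795) and AT3G07790 (0.784), which gave 0.952, 0.877 and 0.948 as deposited. No wall gene of the lists was among these 12. These r include the difference between the groups, and no r within groups was computed for these matches.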

How the data were processed

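The 12 arrays of total RNA were grouped by sample title. The authors deposited 1 linear intensity per row and array, with no value under 0. Their scaling and background correction are not given in the sources used. Mutant replicates 4 and 5 differed by at most 4e-10 and were averaged to 1 array. Values of 0 were treated as missing, and the rest were transformed to log2 and quantile-normalized. Rows with 4 values in each group (3229 of 3439) were fitted with limma 3.58.1 (lmFit, eBayes, two-sided) in R 4.3.3, with Benjamini-Hochberg adjustment over all of these rows and a threshold of 0.05. SEs are limma's. The fit was tested on simulated data.

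In the platform annotation 692 rows have 1 gene, 870 have several and 1877 have none. A match was found for 690 of the 692 in the TAIR10.1 gene table, which was used for names and gene order only, since no build is named. The 4 genes, the wall lists and the alternatives were chosen with earlier results of these data known. Named are the 4 genes, every wall gene named alone, genes whose synonyms carry a wall term, and for each of the 4 genes the 3 rows of highest r. Alternatives changed scaling, zeros, filters, variance model, weights, blocks and threshold, and left out arrays. Leaving out wild-type replicates 5 and 6, or mutant replicates 1 and 2, was added later. There are no detection flags, and precision is limited by how many arrays there are.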

Additional observations from a re-analysis of the deposited data

Results flagged for a closer look

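Of 28 sets of values within a group, 2 held an array that stood well apart, and chance alone flags about 1 in 20 such sets. Both were rows that list several genes. For the row listing GH9B10 and GH9B9, the normalized log2 intensity was -2.86 in wild-type replicate 5 and lay from -3.24 to -3.16 in the rest of that group. For 1 of the rows listing GH9B15 and GH9B14, it was -4.26 in mutant replicate 3 and lay from -2.59 to -1.94 in the rest of that group. None of the 4 genes had such an array.

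A row that lists GH9B18, GH9B17 and AT3G42155 had too few values for the fit. It was listed at 0 in 5 of 6 wild-type arrays and at 0.00218 in the other, and it was above 0 in 3 of 5 mutant arrays, with a highest deposited intensity of 0.104. No fold is given, since the sources do not say what an entry of 0 means.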

How the results depend on the processing

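On the deposited values, 1814 rows were called higher and 281 lower, and the differences were -0.397 for GH9B16, 1.021 for GH9B12, 1.001 for GH9B8 and -0.982 for AT3G57630. With the median intensity added before log2 they were -0.386, 0.136, 0.118 and -0.914. With arrays centred on their medians AT3G57630 was at -1.521. At an adjusted p under 0.01, 507 rows were called higher. Leaving out single arrays gave -1.07 to -0.89 for GH9B16, 0.31 to 0.51 for GH9B12, 0.33 to 0.47 for GH9B8 and -1.31 to -1.16 for AT3G57630. Of the 3 other wall genes, 1 was called higher as deposited, with array weights and without wild-type replicates 5 and 6, and 1 lower with arrays centred on their medians, after cyclic loess, with array weights and without mutant replicates 1 and 2 (fitted with at least 3 values a group). Leaving out single arrays gave 0 to 1 in each direction. GH9B11 turned to 0.267, AT4G38040 to 0.207 and CSLA01 to 0.145 as deposited (adjusted p = 0.0592, 0.183 and 0.345, limma). The causes of these changes were not tested. GH9B12 and GH9B8 have no value with rows below the 25 percentile of brightness left out. Deviations of same-numbered arrays correlated over 0.1 in 4 of 5 pairs (0.0094 to 0.2275), and 4 of 5 mutant arrays correlated best with their own number, a hint of pairing from the data. The labels name no shared batch, and the fit reported has no block. The pair at 0.0094 was that of replicate 4, where the mutant array stands for replicates 4 and 5. That array correlated best with wild-type replicate 5, at 0.0905, and mutant replicate 6 correlated with the same wild-type array at 0.0795. Pairs of unlike number ranged from -0.148 to 0.1299, the highest being wild-type replicate 4 with mutant replicate 3. Whether the arrays were paired was not tested. The array standing for mutant replicates 4 and 5 was numbered 4 in the block as well. With the replicate number as a block, 796 rows were called higher and 629 lower, GH9B16 was at -1.02, GH9B12 at 0.415, GH9B8 at 0.369 and AT3G57630 at -1.18, and the calls of the 4 genes and of the other wall genes were unchanged.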
